A study of Mus musculus with 50 samples.

Results

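The genes Lgi1, Nrxn2, Tns3, Spire1 and Nim1k, were examined for binding of the glucocorticoid receptor (GR) and of nuclear factor I A (NFIA) in mouse primary visual cortex (V1). These 5 of 21938 protein-coding genes were chosen by their CUT&RUN peaks: each holds a strong GR peak in both astrocyte libraries with intact GR and none at that site in either library with GR deleted. That contrast selected the genes, so its values are given below as a description without a test. For each gene, peaks were counted in a window of 50 kb on either side of every annotated start plus the gene body, which spanned 100.9 kb for Lgi1, 117.5 kb for Nim1k, 198.5 kb for Nrxn2, 213.8 kb for Spire1 and 295.9 kb for Tns3 (mm10). The 39 peak lists (27 for GR and 12 for NFIA, in 15 groups) held 163859 peaks, of which 379 lay in these windows.

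CUT&RUN cleaves and releases chromatin at antibody-bound sites, and a peak is a stretch where released fragments exceed those of an immunoglobulin control. V1 nuclei were taken at postnatal day 14 from pooled mice. GR-con and GR-KO astrocytes came from normally reared GR fl/fl mice given an astrocyte-targeting virus (GfaABC1D promoter) that carried catalytically inactive ΔCre or active Cre (2 libraries each). Astrocytes labelled as GFP-positive and wild type were profiled for GR after normal rearing (NR) or dark rearing (DR) and for NFIA after normal rearing (3 libraries each). The wild-type mice profiled for GR had been given the ΔCre virus. For astrocyte NFIA the paper's methods name only GR fl/fl mice given the ΔCre or Cre virus, whereas the labels give wild type. The genotype and virus of the astrocyte NFIA libraries are therefore not settled here. Oligodendrocytes (Olig2-Cre), inhibitory neurons (InN, Slc32a1-Cre) and excitatory neurons (ExN, Slc17a7-Cre), all normally reared and marked with a nuclear Sun1-GFP, gave 3 libraries each for GR and for NFIA. Olig2-Cre marks the Olig2 lineage and is not limited to mature oligodendrocytes. NIH 3T3 fibroblasts, an established mouse line, were profiled for GR at 50000 and 250000 nuclei after 2 h with vehicle or with 200 nM of the synthetic glucocorticoid dexamethasone (DEX), with 2 libraries per arm.

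GR is a nuclear receptor that moves to the nucleus when glucocorticoid binds it and occupies DNA directly at glucocorticoid response elements (GREs) or together with other factors. NFIA is a transcription factor that acts in the formation and maturation of astrocytes. Among the genes, Lgi1 encodes a secreted protein that bridges the synaptic receptors ADAM22 and ADAM23, and Nrxn2 encodes a presynaptic adhesion molecule. Tns3 encodes a tensin that links integrins to actin at focal adhesions, Spire1 an actin nucleator that works with formins, and Nim1k a kinase of the AMPK-related family.

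The lead site of a gene was defined as the region with a peak in both GR-con libraries and none in GR-KO that ranked highest within the GR-con lists. The sequences below are shown because they are the sites that chose the genes. They are printed 5′ to 3′ on the plus strand of mm10 and were read from the RefSeq GRCm38.p6 genome, with letters matching a search in capitals. The searches, made on both strands, were for a full GRE (GNACA and TGTNC separated by 3 free letters), a GRE half-site (AGAACA), a full NFI site (TTGGC and GCCAA separated by 5 free letters), an NFI half-site (TTGGCA), an AP-1 site (TGANTCA) and a site of LIM-homeobox (LHX) factors (TAATTA). The Lgi1, Nrxn2 and Nim1k windows reach 100 bp to either side of the mean GR-con summit, at chr19:38260451-38260651, chr19:6452003-6452203 and chr13:119753949-119754149. The Tns3 window, chr11:8446119-8446418, was extended to 300 bp so that it also holds the summit of the astrocyte NFIA peak, and its capitals mark the closest match to a full GRE.
Lgi1: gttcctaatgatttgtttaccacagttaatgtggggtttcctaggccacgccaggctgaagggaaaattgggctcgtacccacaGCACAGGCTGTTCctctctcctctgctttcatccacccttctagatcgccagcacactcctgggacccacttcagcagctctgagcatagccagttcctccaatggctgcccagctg
Nrxn2: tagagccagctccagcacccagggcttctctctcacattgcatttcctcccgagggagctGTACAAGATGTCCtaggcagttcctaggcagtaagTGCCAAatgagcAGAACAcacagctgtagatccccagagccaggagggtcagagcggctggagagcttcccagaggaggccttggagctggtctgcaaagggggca
Tns3: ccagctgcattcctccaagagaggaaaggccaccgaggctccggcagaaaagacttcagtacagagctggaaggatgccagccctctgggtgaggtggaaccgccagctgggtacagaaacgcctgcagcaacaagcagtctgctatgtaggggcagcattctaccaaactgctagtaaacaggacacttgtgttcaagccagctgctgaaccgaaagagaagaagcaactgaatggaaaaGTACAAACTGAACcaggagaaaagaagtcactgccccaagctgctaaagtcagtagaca
Nim1k: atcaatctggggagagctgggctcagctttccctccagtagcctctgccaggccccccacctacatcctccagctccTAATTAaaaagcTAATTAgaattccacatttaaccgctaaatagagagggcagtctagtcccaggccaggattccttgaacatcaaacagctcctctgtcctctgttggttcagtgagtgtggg

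A full GRE was present at the Lgi1 site, centred 10 bp from the mean GR-con summit, and at the Nrxn2 site, centred 34 bp from it. Only 2.23% of the 3945 regions with a peak in both GR-con libraries held a full GRE in a window of this length, and 13.95% of the 86 regions ranked at least as high as the lowest of the 5 lead sites did. The Nrxn2 site also held a GRE half-site (18.3% of regions) and an NFI half-site (26.7%) within 12 bp of the summit. At the Tns3 site the closest match differed from the full GRE by T11A, counted from the first letter of the element. Some 13.5% of the regions held a match that close. The Spire1 site held a GRE half-site and no full GRE. The Nim1k site, like that of Tns3, held no full GRE or half-site, and it carried 2 copies of the LHX site TAATTA (8.16% of regions) centred 8.5 and 20.5 bp from the summit. No lead site held a full NFI site (0.127% of regions) or an AP-1 site (5.10%). A match to these letters is a description of the sequence and does not show which factor occupied it.

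The lead sites differed in where they lay relative to their genes. The Lgi1 site was 3.99 kb upstream of the gene. The Nim1k site fell in an intron, 1.83 kb into the gene. The Nrxn2 site was intronic, 33.4 kb from the 5′ end and 2.47 kb before the start of an annotated internal transcript. The Tns3 site was intronic too, 218.2 kb into a gene of 232.9 kb and 22.4 kb from the nearest annotated start. The Spire1 site (chr18:67497881-67498445) lay 112.6 kb into the gene and 476 bp before an internal start. Other protein-coding genes with a start within 50 kb of a lead site were Fra10ac1 for Lgi1 (36.4 kb away), Rasgrp2 for Nrxn2 (43.7 kb), Zfp131 for Nim1k (22.1 kb), and Prelid3a (25.3 kb) and Afg3l2 (49.0 kb) for Spire1. The 5′ end of the gene itself was nearer for Lgi1, Nrxn2 and Nim1k. For Spire1 both neighbours were nearer than its 5′ end, and only an internal start of Spire1 lay closer than they did. No protein-coding gene other than Tns3 started within 50 kb of the Tns3 site.

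**Figure D1:**
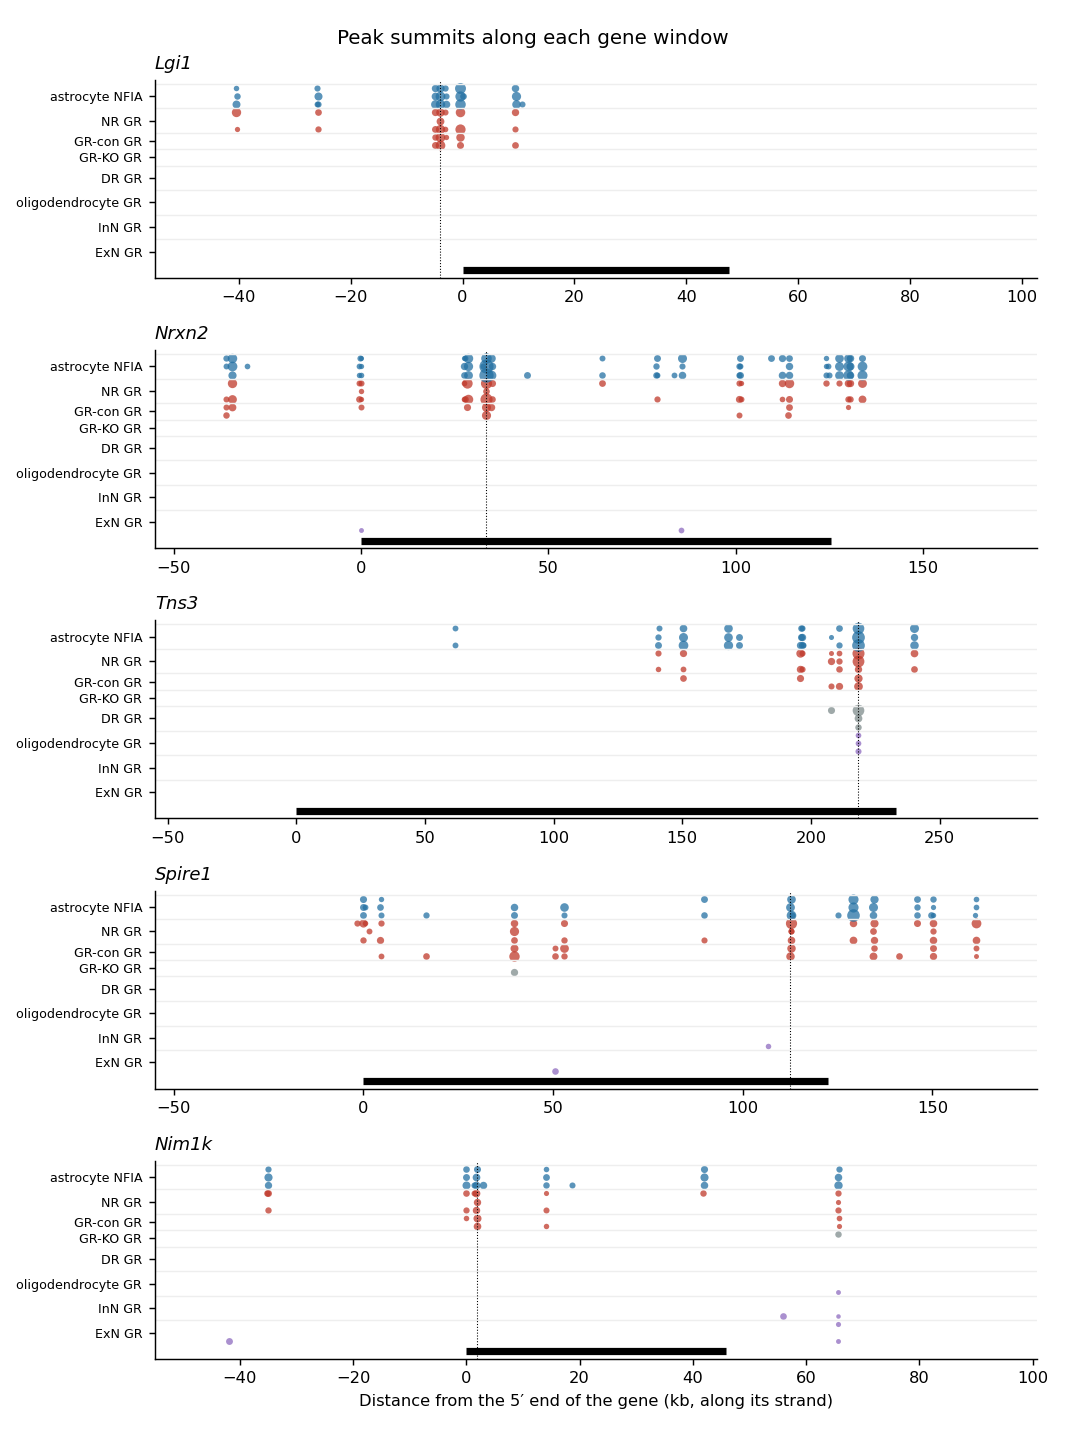
Summits of all V1 peaks in the 5 windows, by distance from the 5′ end of the gene (kb, along its strand), with 1 row per library (replicate 1 lowest in each group), circle area increasing with fold enrichment, the gene as a black bar and the lead site as a dotted line. Other-class NFIA libraries are not drawn. At Tns3 the lead site is called in the 3 DR and the 3 oligodendrocyte GR libraries, and at the other genes it is called in none of them.

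In GR-con astrocytes the lead sites stood high in both lists. Column values are the fold enrichment of a peak over its control, and ranks are within one list because the libraries differ in depth and control. The Lgi1 site had 16.2-fold enrichment in both GR-con libraries (ranks 58 of 7761 and 31 of 6792). The Nrxn2 site had 14.1- and 13.8-fold (ranks 128 and 94), the Tns3 site 12.6- and 11.1-fold (ranks 237 and 325), and the Spire1 site 11.9-fold in both (ranks 317 and 249). The Nim1k site was the weakest, at 9.29- and 10.5-fold (ranks 932 and 423). Of the 2725 regions with a peak in both GR-con libraries and none in GR-KO, the sites ranked 3 (Lgi1), 7 (Nrxn2), 27 (Spire1), 28 (Tns3) and 86 (Nim1k).

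Over the whole windows the contrast was less complete than at the lead sites. Lgi1 held 4 and 4 peaks in the GR-con libraries, Nrxn2 4 and 8, Tns3 3 and 3, Spire1 10 and 7, and Nim1k 3 and 3. Lgi1, Nrxn2 and Tns3 held none in GR-KO, a pattern seen at 19.2% of protein-coding genes. Spire1 held 1 GR-KO peak (8.26-fold, rank 297 of 1846, replicate 1), in an intron 39.7 kb into the gene. This region was the strongest of the window in GR-con replicate 1 (18.9-fold, rank 23) and was called in all 3 NR libraries. Nim1k held 1 GR-KO peak (6.14-fold, rank 202 of 413, replicate 2) at the far edge of its window. It lay 183 bp from a start of Hmgcs1, the cholesterol-synthesis enzyme gene, which was looked up after the value was seen. That region was also called in all 3 NR libraries, in both GR-con libraries, in 1 oligodendrocyte, 1 InN and 2 ExN GR libraries and in all 3 astrocyte NFIA libraries. The GR-KO lists were shorter (2259 peaks in all, against 14553 in GR-con), and 6 and 0 of 8 astrocyte marker genes had a peak in them, against 8 and 7 in GR-con. At the GR-con share of peaks they would have held 1.24 peaks for Lgi1, 1.86 for Nrxn2, 0.931 for Tns3, 2.64 for Spire1 and 0.931 for Nim1k. Among the strongest 413 peaks of each GR-con list, the size of the smaller GR-KO list, the lead sites of Lgi1, Nrxn2, Tns3 and Spire1 were present in both libraries and that of Nim1k in neither. Ranks in these GR-con lists chose the sites, so their presence there does not test a loss in GR-KO against list size.

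The wild-type NR libraries, which the choice of genes did not use, all held the 5 lead sites. A peak in every NR library was found at 26.9% of the 2725 GR-con regions without a GR-KO peak and at 60.5% of the 86 highest ranked. The Nrxn2 site ranked 7 of 14012, 814 of 2262 and 318 of 21539. The Tns3 site ranked 3157, 9 and 131, at 8.52-, 24.8- and 26.03-fold. The Lgi1 site ranked 438, 198 and 2890, the Spire1 site 2497, 1404 and 294, and the Nim1k site 2980, 343 and 5140. At Lgi1 the strongest peak of NR replicates 1 and 3 was not the lead site but one 0.5 kb upstream of the start (18.2- and 15.5-fold), which replicate 2 lacked. At Spire1 the strongest NR peak was a different one in each replicate, namely 129.1 kb, 39.7 kb and 112.7 kb from the 5′ end.

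Window counts in NR astrocytes were 17, 2 and 17 peaks for Nrxn2 (mean 12 ± 8.66, SD, n = 3), 10, 6 and 12 for Spire1 (9.33 ± 3.06), 7, 3 and 8 for Tns3 (6 ± 2.65), 7, 1 and 7 for Lgi1 (5 ± 3.46), and 5, 2 and 8 for Nim1k (5 ± 3). Replicate 2 was the lowest for each gene, as was its list (2262 peaks against 14012 and 21539). Per 100 kb of window the NR means were 6.05 peaks for Nrxn2, 4.96 for Lgi1, 4.37 for Spire1, 4.26 for Nim1k and 2.03 for Tns3, and the median of all protein-coding genes was 0.650. Differences between neighbours in this order were not tested, and all 5 genes were counted in the same 3 libraries.

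**Figure D2:**
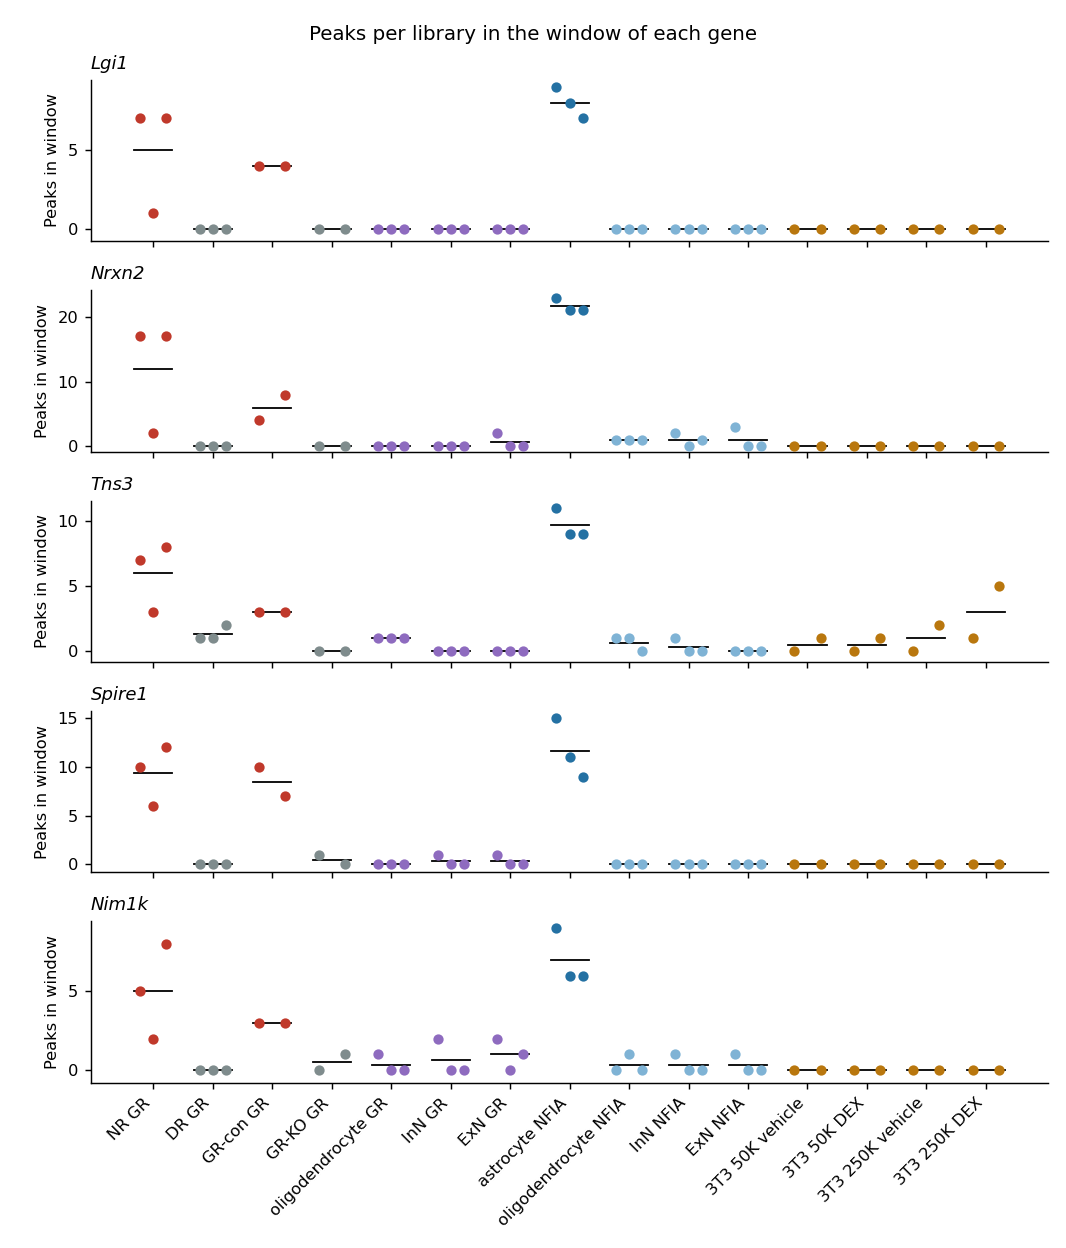
Number of peaks in the window of each gene (y axis) in every library, by group (x axis). Points are libraries and horizontal lines are group means. The NR and GR-con GR libraries and the astrocyte NFIA libraries hold peaks at all 5 genes, and Tns3 is the only one of the 5 with peaks in DR, in all 3 oligodendrocyte GR libraries or in 3T3 cells.

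To ask whether GR occupancy near these genes depended on visual experience, NR and DR astrocytes were compared. All 3 DR libraries held 0 peaks in the windows of Lgi1, Nrxn2, Spire1 and Nim1k. Tns3 held 1, 1 and 2, against 7, 3 and 8 in NR. For each of the 5 genes every NR library was above every DR library, which was also so for 12.8% of all protein-coding genes (2813). Without NR replicate 2, the shortest NR list, it was so for the 5 genes and for 11917 genes in all. The exact permutation test of 3 against 3 libraries cannot go below p = 0.1 (two-sided). In that exact permutation test each of the 5 genes reached the smallest value (adjusted p = 0.727 over 21938 genes), and 0 of all genes passed the adjusted threshold or had an unadjusted p under 0.05.

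The size of the DR lists limits this comparison. They held 69, 28 and 293 peaks, and 0, 0 and 5 of 8 astrocyte marker genes had a peak, against 8, 6 and 8 in NR. At the NR share of peaks the 3 DR lists together (390 peaks) would have held 0.155 peaks for Lgi1, 0.371 for Nrxn2, 0.289 for Spire1 and 0.155 for Nim1k. For a gene without peaks, 0 of 390 allows a share of up to 0.769%, far above the NR shares of 0.0397% to 0.0952%. A loss of these peaks beyond the general drop in list size was therefore not detectable at this depth. Tns3 went the other way: 0.186 peaks would have been held at the NR share and 4 were found. Per 1000 peaks of the list, Tns3 had 14.5, 35.7 and 6.83 in DR against 0.5, 1.33 and 0.371 in NR, so its direction reversed on that scale. Both figures set the short DR lists against the whole NR lists. Among only the strongest 28, 69 and 293 peaks of each NR list, the Tns3 lead site was present in 1, 1 and 2 of the 3 NR libraries.

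**Figure D3:**
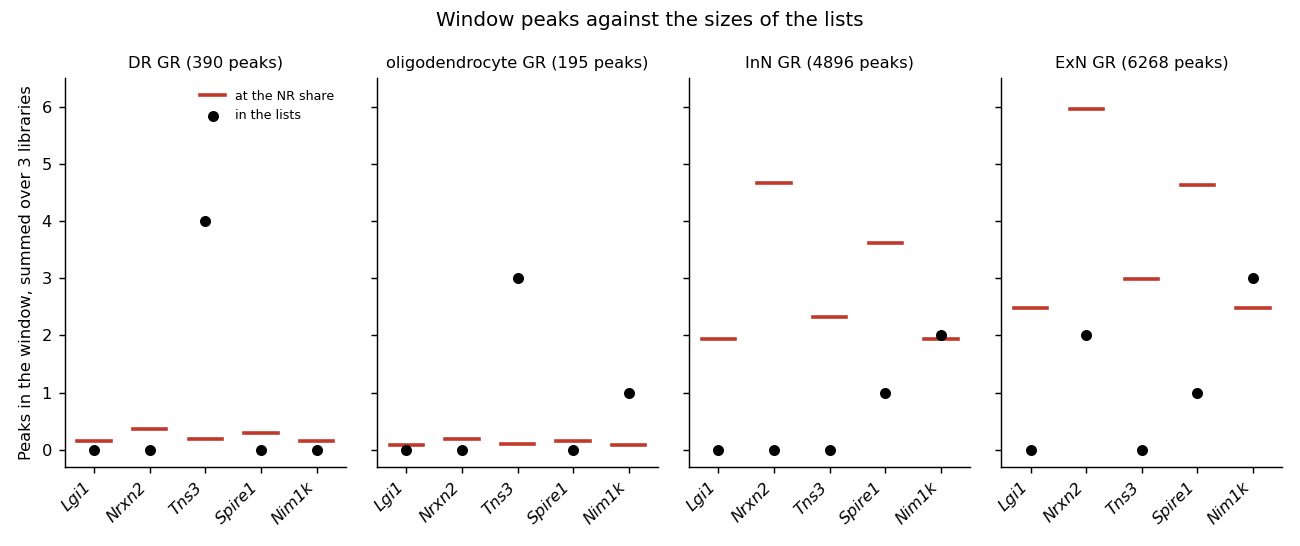
Peaks in each window summed over the 3 libraries of a group (black points) and the number the same lists would hold at the share of peaks found in NR astrocytes (red lines), for DR astrocytes and the other 3 cell classes. Tns3 stands above the line in the DR and oligodendrocyte lists (4 and 3 peaks) and below it in the InN and ExN lists (0 peaks).

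The DR peaks of Tns3 sat at its lead site in all 3 libraries. Their enrichment was 6.11-fold (rank 53 of 69), 9.597-fold (rank 9 of 28) and 24.2-fold (rank 6 of 293). A second DR peak, in replicate 3 (7.77-fold, rank 150), lay 10 kb away at 207.8 kb from the 5′ end, where NR replicates 2 and 3 and GR-con replicate 1 also had one. Of the 2725 GR-con regions without a GR-KO peak, 3.3% had a peak in any DR library and 7 regions (0.257%) had one in every DR library, the Tns3 site among them. Of the 86 highest ranked, 8.14% had one in any DR library and 4 regions (4.65%) had one in every DR library. By gene window, 41 of 21938 protein-coding genes held a GR peak in every DR library, and 8 of these also had peaks in both GR-con and no GR-KO library.

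GR binding was next compared across V1 cell classes. The lead sites of Lgi1, Nrxn2, Spire1 and Nim1k were called in none of the 9 oligodendrocyte, InN and ExN GR libraries. The Tns3 site was called in all 3 oligodendrocyte libraries, at 5.16-fold (rank 3 of 110), 4.37-fold (rank 8 of 81) and 4.28-fold (rank 3 of 4), and in no InN or ExN library. Among the 2725 regions, 2.46% had a peak in any oligodendrocyte GR library and 20.6% in any InN or ExN GR library. Among the 86 highest ranked the shares were 1.16% and 4.65%, so absence from the neuron lists was common for strong regions. Tns3 was the only protein-coding gene with a window peak in every oligodendrocyte GR library. That count rests on replicate 3, which held 4 peaks in all, since 189 genes had a peak in both of the others.

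Over the windows, Lgi1 held 0 GR peaks in all 9 libraries of the other classes. Nrxn2 held 2 in ExN replicate 1 and none elsewhere. Spire1 held 1 each in InN replicate 1 and ExN replicate 1, and Nim1k held 1 in oligodendrocyte replicate 1, 2 in InN replicate 1, and 2 and 1 in ExN replicates 1 and 3. Of the Nim1k peaks, 4 of 6 lay at the Hmgcs1 start. For Lgi1, Tns3 and Spire1 the lowest NR library was above the highest library of the other classes, and for Nrxn2 and Nim1k the groups met at 2 peaks. Such a gap was found for 1149 genes, 12.8% of the 8964 tested, which had a peak in at least 3 libraries. All 3 NR libraries of a gene with a gap hold a peak, so 1149 is also the count among all 21938 genes. Without NR replicate 2 a gap was found for 4358 of 8036, and without NR replicate 1 or 3 for 258 of 5530 or 253 of 5262. The smallest p of the two-sided exact permutation test of 3 against 9 libraries is 0.00909. In that exact permutation test Tns3 had p = 0.00909 (adjusted p = 0.0709) and Nim1k p = 0.0273 (adjusted p = 0.119). Lgi1, Nrxn2 and Spire1 reached 3 libraries with a peak, the least the test takes, only with NR libraries counted, so their p is not given. With a window of 100 kb Lgi1 was no longer above all other libraries. No gene of the 8964 passed the adjusted threshold, and 2459 had an unadjusted p under 0.05.

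List size again bears on these values. At the NR share, the InN lists (4896 peaks) would have held 1.94 peaks for Lgi1, 4.66 for Nrxn2, 2.33 for Tns3 and 3.63 for Spire1, and they held 0, 0, 0 and 1. The ExN lists (6268 peaks) would have held 2.49, 5.97, 2.98 and 4.64, and they held 0, 2, 0 and 1. Nim1k was at that level in both (1.94 and 2.49 against 2 and 3 found). The oligodendrocyte lists (195 peaks) would have held under 0.2 peaks for each gene, so that absence there was not detectable, and 3 were found for Tns3. Per 1000 peaks of the list, the mean of Tns3 was 30.2 in the other classes against 0.732 in astrocytes, but 2.68 without oligodendrocyte replicate 3 and its 4 peaks. That of Nim1k was 1.22 against 0.537, and 0.233 without oligodendrocyte replicate 1, where its single peak lay in a list of 110. Peaks near fixed marker genes were read beside the labels. Of 8 InN markers, 7, 2 and 4 had a GR peak in the InN libraries and 1, 0 and 3 in NR astrocytes. Of 8 ExN markers, 3, 0 and 2 had one in the ExN libraries and 4, 0 and 6 in NR astrocytes. None of 8 oligodendrocyte markers had one in the oligodendrocyte GR libraries, against 5, 2 and 6 in NR astrocytes. The ExN libraries also had a peak at 3, 0 and 1 of 8 astrocyte markers. The ExN and oligodendrocyte markers therefore do not check the labels. A missing peak does not show that a gene is silent.

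**Figure D4:**
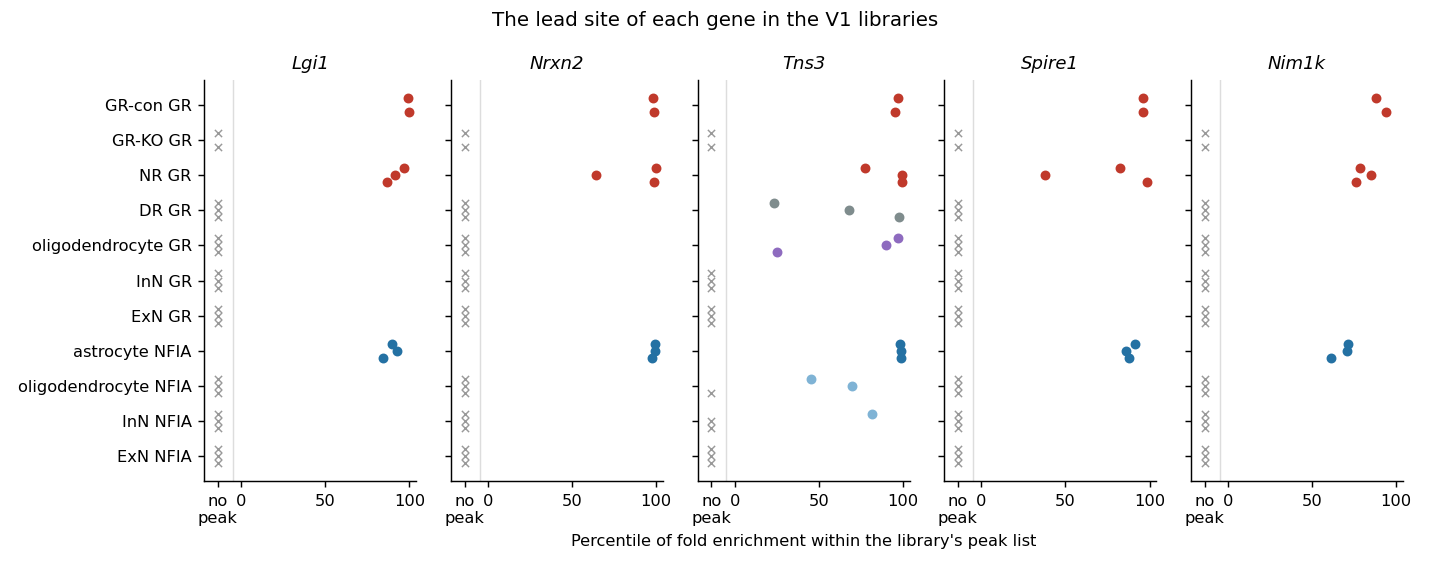
Percentile of the lead-site peak by fold enrichment within each V1 library's own list (x axis, 100 is the strongest), by group (y axis), with crosses for libraries without a peak there. The GR-con values chose the sites. All 3 NR GR and all 3 astrocyte NFIA libraries have a peak at all 5 sites.

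NFIA occupied the same sites in astrocytes. All 5 lead sites were called in all 3 astrocyte NFIA libraries, as were 91.6% of the 2725 regions. The Nrxn2 site reached 37.2-, 36.5- and 19.6-fold (ranks 151 of 27143, 100 of 25441 and 619 of 22373) and the Tns3 site 28.9-, 29.2- and 24.1-fold (ranks 400, 252 and 260). The Nim1k site was the weakest for NFIA as well, at 9.63-, 9.45- and 7.56-fold (ranks 7860, 7369 and 8645). At Lgi1 the NFIA peak 0.5 kb upstream of the start (19.4-, 18.3- and 21.001-fold) was stronger than the one at the lead site (15.3-, 16.5- and 11.3-fold) in each library. In the 5 windows together, 46 of 46, 13 of 14 and 49 of 52 NR GR peaks met an astrocyte NFIA peak by at least 1 bp. The shares over the whole NR lists were 96.1%, 93.4% and 91.1%.

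Tns3 differed from the other genes in the spacing of the 2 factors. Its astrocyte NFIA summits lay at -137 bp from the mean GR-con summit along the plus strand, at the same base in all 3 libraries. The NFIA summits called there in 2 oligodendrocyte libraries and 1 InN library lay between -120 and -106 bp, on the same side. All 12 GR summits at the site, from NR, DR, GR-con, oligodendrocyte and 3T3 libraries, lay between -66 and 47 bp, so GR and NFIA summits did not overlap. At the other 4 sites the mean NFIA summit was 14 bp (Lgi1 and Nrxn2), 18 bp (Spire1) or 45 bp (Nim1k) from the mean GR-con summit and lay within the span of the GR summits. The median distance over the 3623 GR-con regions called in all astrocyte NFIA libraries was 25 bp, and 3.78% were at least as far apart as at Tns3. Within 100 bp of the Tns3 NFIA summit there was no NFI half-site, which 28.0% of those regions held.

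**Figure D5:**
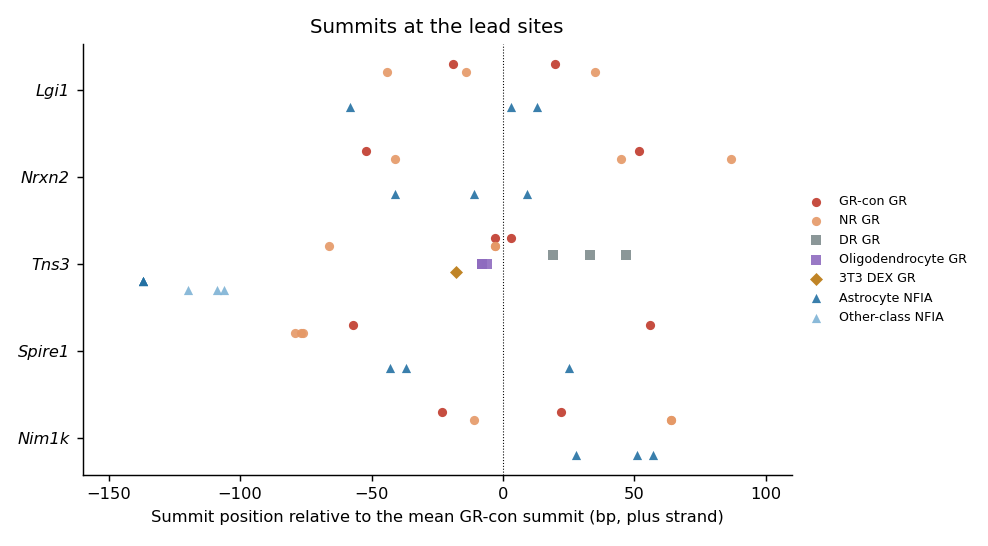
Summit of every peak called at the 5 lead sites, as the distance in bp along the plus strand from the mean of the 2 GR-con summits (dotted line), with 1 symbol per library. At Tns3 all NFIA summits lie between -137 and -106 bp, apart from the GR summits between -66 and 47 bp.

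NFIA counts over the windows were 9, 8 and 7 for Lgi1, 23, 21 and 21 for Nrxn2, 11, 9 and 9 for Tns3, 15, 11 and 9 for Spire1, and 9, 6 and 6 for Nim1k in astrocytes. The highest of the 9 libraries of other classes held 0 for Lgi1 and Spire1, 3 for Nrxn2, and 1 for Tns3 and Nim1k. Every astrocyte library was above every other library at each of the 5 genes, as at 11769 genes, 82% of the 14352 tested. Without the filter on genes the count was the same, among all 21938. Nrxn2, Tns3 and Nim1k passed the two-sided exact permutation test of 3 against 9 (p = 0.00909, adjusted p = 0.0111), as did 93.9% of genes. Lgi1 and Spire1 entered that test only through the astrocyte libraries, so their p is not given. The lists of other classes were far shorter, with 1034 (oligodendrocyte), 3373 (InN) and 4420 (ExN) peaks against 74957 in astrocytes, and ExN replicate 3 held 1 peak. At the astrocyte share they would have held 0.897, 2.92 and 3.83 peaks for Nrxn2, and 3 were found in each class. For Spire1 they would have held 0.483, 1.57 and 2.06, and none was found. Per 1000 peaks of the list the mean of Nrxn2 was 0.870 in astrocytes and 1.99 in the other classes (1.11 without oligodendrocyte replicate 3). That of Tns3 was 0.387 against 0.765, and 0.239 without oligodendrocyte replicate 1.

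The NFIA peaks of other classes were few, and some were called at the same place in more than 1 library. At Nrxn2, a 170 bp stretch of an intron (chr19:6504401-6504570), 85.8 kb into the gene, had an NFIA peak in all 3 oligodendrocyte libraries (10.2-fold, rank 10, 7.22-fold, rank 124, and 7.70-fold, rank 32). It was also called in InN replicate 1 (5.92-fold), in ExN replicate 1 (8.45-fold) and in all 3 astrocyte libraries (9.01-, 5.33- and 13.7-fold), and in no GR library. This site was chosen after its values were seen, and not all other-class NFIA peaks of Nrxn2 lay there. Of the InN peaks, 1 lay upstream of the gene. At the Tns3 lead site, oligodendrocyte replicates 1 and 2 (4.64- and 5.47-fold) and InN replicate 1 (6.74-fold) had an NFIA peak. The 3 other-class NFIA peaks of Nim1k all lay at the Hmgcs1 start. A lead-site NFIA peak in any other class was found for 1 of the 5 genes, at 19.2% of the 2725 regions and at 8.14% of the 86 highest ranked.

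In 3T3 cells, which show what a synthetic glucocorticoid does in a cell type unrelated to V1, Lgi1, Nrxn2, Spire1 and Nim1k held 0 GR peaks in all 8 libraries. Tns3 held 0 and 1 peaks with vehicle and 0 and 1 with DEX at 50000 nuclei, and 0 and 2 against 1 and 5 at 250000. Vehicle and DEX libraries overlapped at both numbers of nuclei. No gene of the 5 was higher with DEX in every library, a pattern found at 1.99% of protein-coding genes, and for Tns3 the exact permutation test within numbers of nuclei gave p = 0.667 (adjusted p = 1, smallest possible p 0.0556). The Tns3 lead site was called in 1 library, DEX replicate 2 at 250000 nuclei (5.55-fold, rank 3243 of 4654), with its summit 18 bp from the GR-con mean. The other 3T3 peaks at Tns3 lay elsewhere, at 75.0 to 84.5 kb into the gene or at -40.9 to -10.4 kb, before its 5′ end. Among the 2725 regions, 8.33% had a peak in any DEX library and 1.76% in any vehicle library, all called at a less strict q limit than the V1 lists. For the 86 highest ranked the shares were 15.1% and 3.49%.

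The relatives and partners of the 5 genes came from lists drawn up by family with earlier results of these data known (65 genes besides the 5). They held a median of 1.67 NR GR peaks, against 0.667 over all protein-coding genes, and 17 of 65 (26.2%, against 12.8% of all genes) had every NR library above every DR library. The astrocyte GR libraries were above all other classes at 5 of 41 tested (12.2%, against 12.8%), and 51 of 54 tested passed the NFIA comparison (94.4%, against 93.9%). Peaks in both GR-con and no GR-KO library were found at 14 of 65 (21.5%, against 19.2%), and a GR-KO peak at 16 of 65 (24.6%, against 10.5% of all genes). Diaph3 and Sik3 were among those with a DR peak. The lists hold long genes, and window length was not adjusted for.

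Among the Lgi1 partners, Dlg4, which encodes the postsynaptic scaffold PSD-95, held 8, 2 and 15 NR peaks and 1 GR-KO peak, Lgi4 held 5, 0 and 9, and Lgi3 1, 0 and 5. The receptor gene Adam23 held 1 in each NR library and 1 in GR-KO, and Adam11 held 0, 0 and 3 in NR. Among neurexins and their ligands, Nrxn3 held 3, 2 and 3 peaks in NR and 2 and 0 in GR-KO. The neuroligin genes Nlgn2 (5, 1 and 6) and Nlgn1 (2, 2 and 3) held 0 and 2 GR-KO peaks, and Dag1 (dystroglycan) held 2, 1 and 4 NR peaks and none in GR-KO.

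Among focal adhesion genes, the kinase gene Ptk2 held 8, 2 and 11 NR peaks and 4 and 1 in GR-KO, Vcl (vinculin) 6, 3 and 8 and 3 and 0, and Pxn (paxillin) 6, 0 and 11 and none. Fermt2 (a kindlin) held 4, 0 and 5 and 1 in GR-KO, and Ilk (integrin-linked kinase) 4, 0 and 7 and none. Of the other tensin genes, Tns1 held 4, 0 and 7, Tns2 1, 0 and 4, and Tns4 0, 0 and 1 NR peaks, and no one of them held a DR peak. Among actin nucleators, the formin genes Diaph1 (9, 1 and 12) and Fmn2 (3, 1 and 7) held 1 and 3 GR-KO peaks, Diaph2 held 2, Diaph3 1 and Cobl 1, and Fmnl2 held 2, 0 and 4 NR peaks and none in GR-KO. Among AMPK-related kinases, Mark3 held 13, 0 and 14 NR peaks, Stk11, which encodes their upstream kinase LKB1, 11, 1 and 15, Sik3 8, 1 and 10 and Brsk1 5, 1 and 6. GR-KO peaks were held by Stk11 (1 and 0), Sik3 (2 and 1) and Nuak1 (0 and 1), and Sik3 also had 2 peaks in DR replicate 3.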

How the data were processed

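Per the labels and methods, reads were adapter-trimmed (cutadapt), mapped to mm10 (Bowtie2), cleared of duplicates (Picard) and of poorly mapped reads (SAMtools) and limited to short fragments (deepTools), and the authors called peaks in each library with MACS2 against the immunoglobulin control of its cell class. The deposited lists give positions, fold enrichment over control (a ratio) and −log10 p and q. They hold no read counts, so depth is unknown and list size stands in for it. V1 and 3T3 lists were deposited at different q limits, and peak numbers were not tested between them. Peaks were counted (at least 1 bp overlap) in windows of 50 kb around each GENCODE M21 start plus the gene body, with Python 3.11.15, NumPy 2.4.6 and pysam 0.24.0. Mean counts were compared by two-sided exact permutation tests over all protein-coding genes with Benjamini-Hochberg adjustment (threshold 0.05). Cell class tests used genes with a peak in at least 3 libraries. The 3 against 9 test was tested on simulated NFIA counts with known changes, and the 3 against 3 and 3T3 tests cannot reach the threshold. The simulated libraries did not differ in list size, so the behaviour of the test under the real differences in list size was not examined. Named genes were the 5 members, the up to 4 genes of each list with most NR peaks and those with a GR-KO peak. Ties, further tensins and Hmgcs1 were added after their values were seen. 1 listed gene is not reported here. The members and lists were chosen with earlier results of these data known. V1 replicates were separate pools of mice. No source used here says that 3T3 replicates were separate cultures, so their p-values may measure technical spread. Immunoglobulin and GFP-negative libraries were not analysed here.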

Additional observations from a re-analysis of the deposited data

How the results depend on the processing

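The count of genes with NR above DR stayed at 5 with 10 and 100 kb windows, with 50 kb around the starts only, a stricter q limit, log2 counts, each library left out and the replicate block (smallest p 0.25). It was 4 per 1000 peaks of the list. Correlations of the deviations of same-numbered libraries do not settle whether replicate numbers pair them (4 of 25 over 0.1, range -0.107 to 0.378). The 4 were NR replicates 1 and 2 with InN and ExN GR replicates 1 and 2 (0.156 to 0.378). For replicate 3 the values were -0.106 (InN) and -0.107 (ExN). The GR cell class count was 3. It was 4 at 10 kb (Nim1k joined), 2 at 100 kb (Lgi1 lost), 3 per 1000 peaks of the list (Tns3 lost, Nrxn2 joined), 5 against oligodendrocytes alone, 5 with the replicate block (all genes adjusted p at least 0.129), 2 to 4 with 1 library left out (2 without NR replicate 1 or 3, where Lgi1 leaves the filter of 3 libraries with a peak, and 4 without NR replicate 2 or ExN replicate 1) and 0 among the 800 strongest peaks, where Nim1k reversed (a difference of -0.0667 peaks). The NFIA count was 5 and held under the replicate block (smallest adjusted p 0.0361). It was 3 without any 1 astrocyte NFIA library, because Lgi1 and Spire1 then have peaks in 2 libraries and leave the filter, so values ranged from 3 to 5. With the 800 strongest peaks it was 0. Only lists of at least 800 peaks entered, 6 libraries for NFIA and 8 for GR, with no oligodendrocyte list. The smallest possible p for NFIA was then 0.1, so no gene could pass. Against 1 class at a time 0 passed, since 3 against 3 libraries cannot go below 0.1. Per 1000 peaks of the list, an alternative added after seeing the data, the NFIA count was 2 (Lgi1 and Spire1). Both entered that test only through the astrocyte libraries, so its outcome for them is not given. On that scale differences reversed for Tns3 (NR minus DR -18.3, astrocytes minus other classes -29.4 for GR and -0.378 for NFIA), Nim1k (-0.680 for GR) and Nrxn2 (-1.12 for NFIA). Single short lists carried much of these: Tns3 was at -9.93 without DR replicate 2, -1.95 without oligodendrocyte GR replicate 3 and 0.148 without oligodendrocyte NFIA replicate 1, Nim1k at 0.304 without oligodendrocyte GR replicate 1 and Nrxn2 at -0.243 without oligodendrocyte NFIA replicate 3. In 3T3 cells the Tns3 difference ranged from -0.0833 to 1.58 with 1 library left out, reversing without DEX replicate 2 at 250000 nuclei, and the replicate block leaves a smallest p of 0.125. Taking only the strongest 28, 69 or 293 peaks of each NR list, the sizes of the DR lists, 0 lead sites remained called in every NR library. The GR-con and GR-KO count of 3 was 4 in a window of 10 kb (Nim1k joined) and 3 to 4 with 1 library left out. Over all genes, counts of separated genes moved with the window: 1386 to 4510 for NR above DR (2813), 702 to 1397 for GR classes (1149), 186 to 789 for DEX (437) and 2135 to 5732 for GR-con without GR-KO (4209), each from 10 to 100 kb. They were 2766 and 1795 for GR against oligodendrocytes or InN alone, 2177 for GR classes with the replicate block, 211 (GR) and 525 (NFIA) with the 800 strongest peaks, and 5588 (5672 passing the test, against 13482) for NFIA per 1000 peaks. Depth and list size limit every statement of absence in the DR and oligodendrocyte lists.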

Other observations

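Each gene was matched with the protein-coding genes beyond 500 kb whose window counts followed it most closely over the 39 libraries, the 8 of 3T3 cells included (Pearson r of log2(peaks + 1), libraries sharing cell class, list size and control). These were Als2cl and Sdcbp2 for Lgi1 (r = 1.00 for both), Sdk2 and Gabpb2 for Nrxn2 (0.977 and 0.966), E130114P18Rik and Fam25c for Spire1 (0.982 and 0.981) and Large2 and Cmtm5 for Nim1k (0.969 for both). Such likeness was common: 3093 genes reached an r of 0.9 with Lgi1, 2404 with Nrxn2, 1414 with Spire1 and 751 with Nim1k. For Tns3 no gene did, and the closest were Cuedc1 and Idh2 (0.890 and 0.888).

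The windows cut through few GR-con peaks. At Nim1k the outermost peak inside lay 1.73 and 1.70 kb from the edge (3.21- and 4.26-fold, at the Hmgcs1 start), and the nearest outside was 225.7 kb beyond it in both libraries (7.15- and 8.56-fold). At Nrxn2 a weak peak lay 4.91 and 4.92 kb outside (2.77- and 3.83-fold). At Lgi1, Tns3 and Spire1 the nearest peak outside was 139.2 to 838.2 kb beyond the edge.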
